A study of Rattus norvegicus with 24 samples.

Results

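Cerebellum and hippocampus of undosed rat pups were compared at postnatal day (PND) 14, probe set by probe set, on Affymetrix rat arrays. The comparison takes the cerebellum arrays of dams 1 and 7 and the hippocampus arrays of dams 1, 7 and 13, which are 5 of the 24 arrays of the series. A further cerebellum array, that of dam 13, was left out because its median log2 value of 7.91 lay above 7.7 and thus off the scale of the rest. All pups were Long-Evans rats, labelled male, with 1 pup taken per litter at each age. Their mothers were gavaged once a day with Aroclor 1254, which is a PCB mixture sold commercially, at 6 mg/kg in corn oil or with 0 mg/kg. Dosing began on gestation day 6 and, by the protocol, ran until PND 21, so that it lasted to the day a pup was taken. Undosed means a mother given 0 mg/kg, and every animal in the comparison shares that vehicle. The other groups, used for the spread and for tests of the difference between conditions, are dosed pups at PND14 (dams 12, 15 and 18) and undosed and dosed pups at PND7, each in both tissues with 3 arrays a group. Both tissues of a dam at an age come from the same pup, so at PND14 dams 1 and 7 each gave a pair.

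The cerebellum is built from a very large population of granule cells, which use glutamate, and from Purkinje cells, the GABA-releasing neurons that carry the output of its cortex. In the rat much of this tissue forms after birth: precursors divide in the external granular layer, and young granule cells migrate inward past the fibres of Bergmann glia while Purkinje cells extend their dendrites. The hippocampus is a forebrain structure dominated by excitatory pyramidal neurons and by the granule cells of the dentate gyrus, and is studied above all for synaptic plasticity and memory. Arrays of whole tissue measure the mixture, so fewer cells of a type and less RNA per cell cannot be told apart here.

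The stretches of 250 bases before the start of 3 genes at the ends of the comparison are shown because these genes are the reference points for the values below: Pcp2 and Gabra6 among the highest in the cerebellum, Nrgn among the highest in the hippocampus. The entries are from RefSeq on rat assembly GRCr8, all read from the minus strand, 5′ to 3′ toward the gene: Pcp2 from chr12:6481308-6481557, Gabra6 from chr10:27327235-27327484 and Nrgn from chr8:45452418-45452667. Capitals mark AGGTCA, the core site of nuclear receptors such as RORα, or the E-box CAGATG and its reverse complement, a site of NeuroD-type factors.
Pcp2: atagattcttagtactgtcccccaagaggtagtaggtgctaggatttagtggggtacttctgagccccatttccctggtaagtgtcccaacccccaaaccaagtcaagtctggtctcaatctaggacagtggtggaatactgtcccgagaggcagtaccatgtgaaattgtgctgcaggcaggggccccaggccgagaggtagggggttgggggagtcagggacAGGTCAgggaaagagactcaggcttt
Gabra6: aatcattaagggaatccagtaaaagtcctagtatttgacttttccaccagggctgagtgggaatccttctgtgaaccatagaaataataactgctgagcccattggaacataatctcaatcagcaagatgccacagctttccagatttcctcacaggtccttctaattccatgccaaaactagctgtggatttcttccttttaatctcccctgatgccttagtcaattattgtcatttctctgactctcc
Nrgn: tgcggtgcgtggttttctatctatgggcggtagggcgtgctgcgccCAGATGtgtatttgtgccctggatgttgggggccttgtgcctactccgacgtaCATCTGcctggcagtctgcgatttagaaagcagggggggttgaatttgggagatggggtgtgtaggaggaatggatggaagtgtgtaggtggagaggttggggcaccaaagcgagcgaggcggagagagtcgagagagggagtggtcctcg
On the strand shown, AGGTCA began 26 bases before the start of Pcp2, and CAGATG was found 204 bases before that of Nrgn and, on the other strand, 151 bases before it. Searched on both strands, AGGTCA occurred in 14.1% and CAGATG in 14.0% of 33469 RefSeq promoters of this length. The window of Gabra6 held neither, nor CAGCTG (12.0%), TGACGTCA (1.59%), GCGGGGGCG (2.45%) or TATAAA (12.9%). Among the 12 genes with the largest difference in each direction, 9 of the cerebellum and 10 of the hippocampus had a promoter in the table. AGGTCA was in 1 of the 9 and CAGATG in 2 of the 10, Mpped1 and Nrgn. A match describes the letters of the window and shows no binding.

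The 5 arrays were alike in scale, with medians of 7.43 to 7.47 on the log2 scale. The 2 cerebellum arrays correlated at 0.996 over all probe sets and the hippocampus arrays at 0.995 to 0.996, against 0.951 to 0.954 between tissues. The left-out array correlated at 0.623 to 0.659 with the others. In 4 arrays Xist, the RNA that silences an X chromosome in females, stood at 8.98 to 10.76, against 3.95 to 4.32 in the other 19. These were both tissues of the PND14 pup of dam 1 and both tissues of the PND7 pup of dam 13, so 2 pups labelled male had Xist levels that go against the label. In the comparison Xist was 10.76 and 4.07 in the cerebellum of dams 1 and 7, and 8.98, 4.13 and 4.31 in the hippocampus of dams 1, 7 and 13. Counts without these 4 arrays, which leaves 1 cerebellum and 2 hippocampus arrays at PND14, are therefore given below. The lone cerebellum array is then assumed to vary like those of the other groups.

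The tissues differed widely. A gene is called where the adjusted p of limma, after the Benjamini-Hochberg method over all 10330 probe sets tested, is under 0.05, and the errors given for a difference are limma's standard errors (SE). Of 10330 probe sets, 5565 were called, which is 53.9%, with 3186 (30.8%) higher in cerebellum and 2379 (23%) higher in hippocampus. Over 7474 genes, each represented by 1 probe set, 3995 (53.5%) were called, 2249 (30.1%) higher in cerebellum and 1746 (23.4%) higher in hippocampus. At 2-fold or more, 562 probe sets (5.44%) were higher in cerebellum and 481 (4.66%) in hippocampus, and 383 genes (5.12%) and 350 genes (4.68%). At 4-fold or more the counts were 47 and 78. The median difference over all genes was 0.04 on the log2 scale, and the 5 arrays did not overlap between tissues for 5584 genes (74.7%). With the off-scale array kept, the share of called probe sets higher in cerebellum moved from 57.3% to 71.2% and the median over all probe sets from 0.05 to 0.18. With the 23 arrays quantile normalized that share was 50.9%, with 2843 called higher in cerebellum and 2745 in hippocampus. With no filter on low values it was 51.3%, with 3545 and 3366. The excess toward the cerebellum thus depends on the scaling and on the filter. Without the 4 arrays of high Xist, 3586 probe sets were called, 1955 higher in cerebellum and 1631 higher in hippocampus. Of the 733 genes called at 2-fold or more, 724 were still called in the same direction in that fit.

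**Figure D1:**
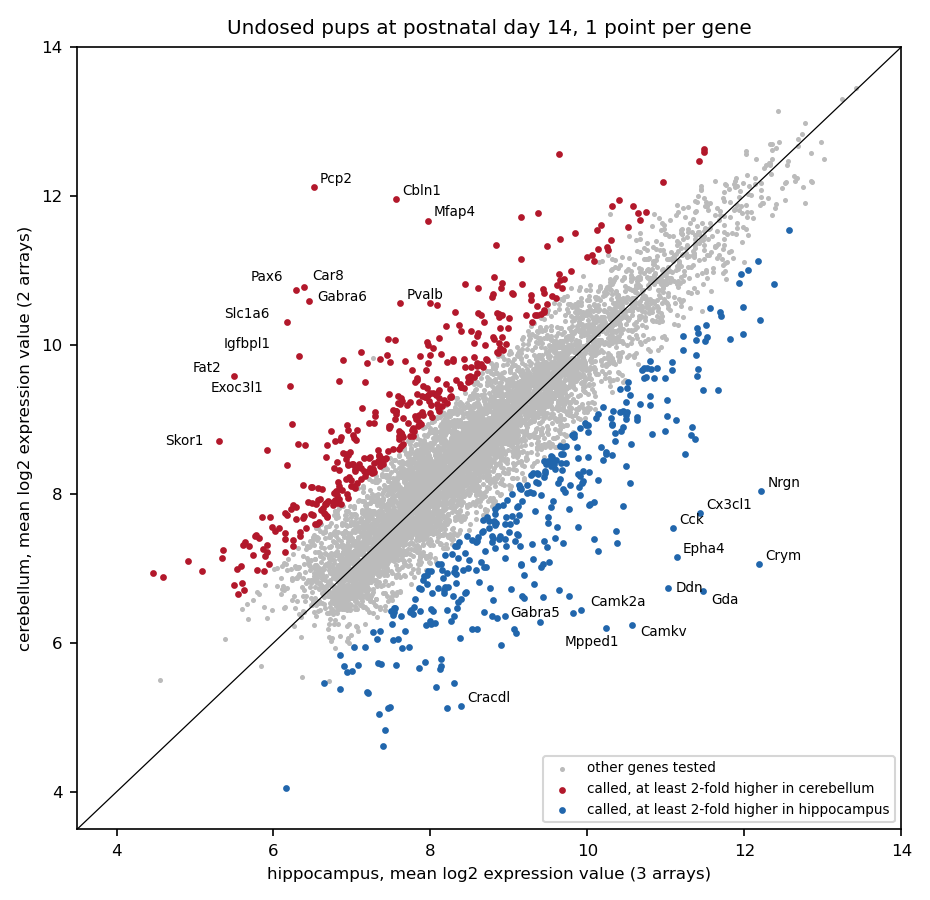
Mean log2 expression value of each of 7474 genes in hippocampus (horizontal axis, 3 arrays) and cerebellum (vertical axis, 2 arrays) of undosed pups at PND14, with the diagonal marking equal values. Red points are the 383 genes called at least 2-fold higher in cerebellum, blue points the 350 called at least 2-fold higher in hippocampus, and the 12 largest differences in each direction are named: Pcp2 lies farthest above the diagonal and Crym farthest below.

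Among genes with a symbol, the largest difference toward the cerebellum was that of Pcp2, a Purkinje cell protein that modulates G protein signalling. Its log2 values were 12.01 and 12.24 in the cerebellum of dams 1 and 7, and 6.56, 6.47 and 6.51 in the hippocampus of dams 1, 7 and 13. Both cerebellum arrays lay far above all hippocampus arrays, by 5.61 ± 0.12 (SE, limma adjusted p = 5.89e-19), or 48.8-fold. These hippocampus values lay below the 40th percentile of the 5 arrays, which was 6.85 to 6.91. The same holds for the hippocampus values of Car8, Slc1a6, Pax6 and Gabra6 below, so these folds are taken over low values. Car8, a carbonic anhydrase relative that binds the IP3 receptor, was at 10.86 and 10.71 against 6.39, 6.32 and 6.47, a difference of 4.39 ± 0.12. Slc1a6, the glutamate transporter EAAT4 of Purkinje cells, was at 10.15 and 10.46 against 6.04, 6.18 and 6.30, a difference of 4.13 ± 0.13. The 12 genes named in each direction were taken from called genes whose arrays do not overlap. The lack of overlap is therefore given by the choice.

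Among genes of granule cells and their precursors, Pax6, a homeodomain factor of the granule lineage, had values of 10.78 and 10.70 against 6.70, 5.88 and 6.30 and differed by 4.45 ± 0.18 (limma adjusted p = 3.87e-14), or 21.8-fold. Cbln1, the precursor of the secreted protein cerebellin that ties granule cell axons to Purkinje cell spines, was at 11.95 and 11.98 against 7.60, 7.67 and 7.44, a difference of 4.39 ± 0.22. Gabra6, the GABA-A receptor α6 subunit of granule cells whose promoter is shown above, was at 10.49 and 10.68 against 6.59, 6.36 and 6.42. That is a difference of 4.13 ± 0.28 (limma adjusted p = 1.19e-10), or 17.5-fold. Fat2, a giant cadherin of granule cell axons, differed by 4.08 ± 0.17. The other genes among the 12 largest were Mfap4 (3.70 ± 0.16), which encodes a protein of the extracellular matrix, Igfbpl1 (3.53 ± 0.20), Skor1 (3.40 ± 0.18), a transcriptional corepressor, Exoc3l1 (3.23 ± 0.16) and Pvalb (2.95 ± 0.22), the calcium buffer parvalbumin.

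Among genes with a single symbol, the largest difference toward the hippocampus was that of Crym, a crystallin family protein that binds thyroid hormone in the cytosol. Its values were 7.08 and 7.03 in cerebellum and 12.07, 12.18 and 12.29 in hippocampus, a difference of -5.13 ± 0.10 (limma adjusted p = 7.07e-20), or 35.0-fold higher in hippocampus. Nrgn encodes neurogranin, a postsynaptic protein that binds calmodulin, and was at 8.14 and 7.95 against 12.16, 12.32 and 12.15, a difference of -4.17 ± 0.12. Both genes were high in all 3 hippocampus arrays and low in both cerebellum arrays. Gda, which encodes the guanine deaminase cypin, differed by -4.78 ± 0.28, and Ddn, the dendritic protein dendrin, by -4.28 ± 0.14. Camkv, a kinase-like protein that binds calmodulin, differed by -4.34 ± 0.20.

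Camk2a, the α subunit of the calcium/calmodulin-dependent kinase of excitatory synapses, was the most variable of these genes in hippocampus. Its values were 9.93, 10.48 and 9.36 there, against 6.31 and 6.57 in cerebellum, so the groups did not overlap and the difference was -3.48 ± 0.33 (limma adjusted p = 1.84e-08). Epha4, an ephrin receptor, differed by -3.99 ± 0.13, with hippocampus arrays between 11.11 and 11.17 and cerebellum arrays at 7.20 and 7.10. Cx3cl1, the membrane-bound chemokine fractalkine, differed by -3.69 ± 0.15, and the neuropeptide gene Cck by -3.54 ± 0.10. Gabra5, the α5 subunit of GABA-A receptors, differed by -3.41 ± 0.24. Mpped1 (-4.04 ± 0.16) and Cracdl (-3.23 ± 0.13) complete the 12. All 24 genes kept their direction and call in the fit with the pup as a block, and their direction without the 4 arrays of high Xist. With the off-scale array kept, Mfap4 lost its call. It stood at 1.79 as deposited (limma adjusted p = 0.109) and at 1.38 quantile normalized (0.292).

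**Figure D2:**
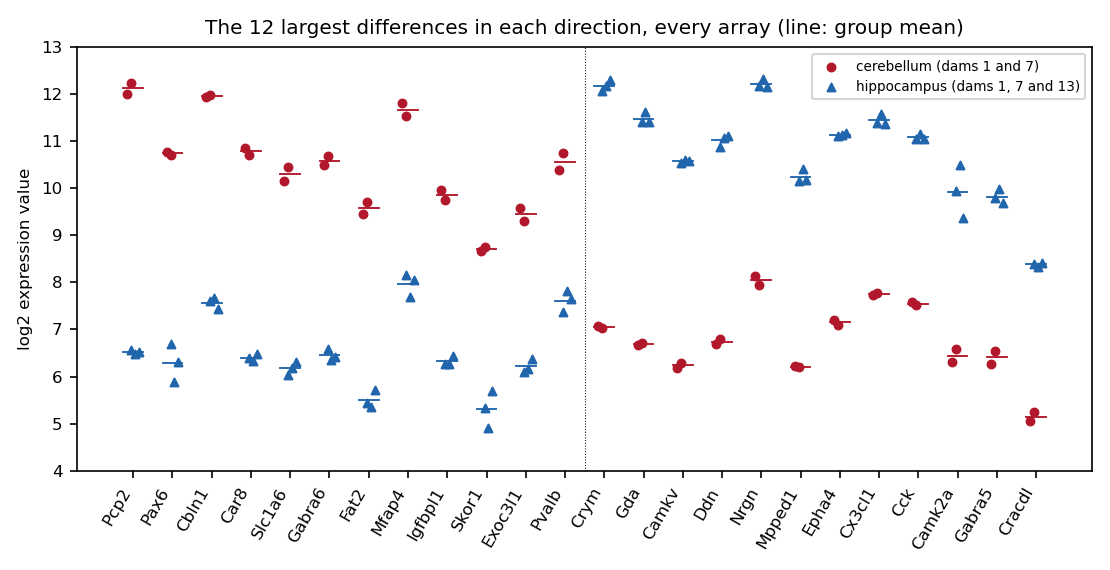
Log2 expression value in every array for the 12 genes with the largest called difference toward cerebellum (left of the dotted line, Pcp2 to Pvalb) and toward hippocampus (right, Crym to Cracdl). Red circles are the cerebellum arrays of dams 1 and 7, blue triangles the hippocampus arrays of dams 1, 7 and 13, and lines are group means: the genes were chosen among those whose arrays do not overlap, and the widest spread within a tissue is that of Camk2a in hippocampus (9.36 to 10.48).

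The same tissue difference in dosed pups at PND14 rests on 6 other arrays, 3 a tissue, which entered the estimate of spread but gave no part of the difference between undosed tissues. All 733 genes called at 2-fold or more in undosed pups had the same direction in dosed pups, 732 (99.9%) were called, and 585 reached 2-fold there too. The share called over all genes was 52.9% in dosed pups. Pcp2 differed by 5.85 ± 0.11 and Gabra6 by 3.85 ± 0.25 in dosed pups, and Crym by -4.94 ± 0.09 and Nrgn by -4.49 ± 0.11.

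Purkinje cell genes were mostly higher in cerebellum. Of 24 listed, 14 were tested, and 11 were called higher in cerebellum, all by at least 2-fold, 1 higher in hippocampus and 2 not called. Their median difference was 1.89, against 0.04 over all genes tested. Over all genes 30.1% were called higher in cerebellum, 5.12% at 2-fold or more, and 23.4% higher in hippocampus. Summed linear levels, here and below, take every listed gene matched on the array, also those below the filter. For the 15 Purkinje cell genes on the array the sum was 24421 to 25086 in cerebellum and 8133 to 9020 in hippocampus. Beside Pcp2, Car8, Slc1a6 and Pvalb, the calcium buffer calbindin, Calb1, was at 11.72 and 11.71 against 9.23, 9.18 and 9.08, a difference of 2.56 ± 0.10. Itpr1, the IP3 receptor that releases calcium from stores in Purkinje cells, differed by 2.00 ± 0.12. The member higher in hippocampus was Stmn4 (-0.56 ± 0.10), named after its value was seen. The counts were again 11 and 1 without the 4 arrays of high Xist.

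Genes of mature granule cells numbered 15 tested of 21 listed, with 10 higher in cerebellum, all by at least 2-fold, 3 higher in hippocampus and 2 not called. The shares called over all genes were 30.1% higher in cerebellum and 23.4% higher in hippocampus. The median difference was 1.18, and the summed linear level was 28231 to 28996 in cerebellum and 13877 to 14387 in hippocampus. Neurod1, a bHLH factor of differentiating granule cells, was at 12.61 and 12.52 against 9.79, 9.55 and 9.59, a difference of 2.92 ± 0.13 with no overlap. Zic1, a zinc finger factor of the granule lineage, differed by 2.70 ± 0.21. Grin2c, the NMDA receptor subunit that granule cells take up as they mature, was at 10.43 and 10.39 against 9.26, 9.43 and 9.40. Its difference of 1.04 ± 0.30 was called, but the adjusted p was 0.105 without the 4 arrays of high Xist. The 3 members higher in hippocampus, named after their values were seen, were Slc17a7 (-0.88 ± 0.15), a vesicular glutamate transporter that hippocampal neurons use too, Calb2 (-0.63 ± 0.16) and Slc12a5 (-0.34 ± 0.12). This count was 1 without the 4 arrays of high Xist.

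Genes of dividing precursors were also higher in cerebellum. Of 9 precursor genes tested, 8 were higher in cerebellum and 1 was not called, with a median difference of 1.21. Nhlh1, a bHLH factor of newborn neurons, differed by 2.90 ± 0.15, Boc, a co-receptor for Sonic hedgehog, by 1.97 ± 0.14, and Barhl1, a homeodomain factor of the granule lineage, by 1.91 ± 0.19. Of 34 cell cycle genes tested, 33 were higher in cerebellum, with a median difference of 1.06, and Ccne1 (-0.21 ± 0.12), named after its value was seen, was not called. Mcm7, of the replicative helicase, differed by 1.90 ± 0.13, Top2a, a topoisomerase of dividing cells, by 1.86 ± 0.19, Ube2c, which tags mitotic cyclins, by 1.68 ± 0.19, and Ezh2, a histone methyltransferase, by 1.66 ± 0.14. The proliferation antigen gene Mki67 was at 8.06 and 7.64 against 6.29, 6.09 and 6.37, a difference of 1.60 ± 0.20 with no overlap. In genes of young migrating neurons 8 of 16 were higher in cerebellum and 4 in hippocampus, against 30.1% and 23.4% of all genes. Cntn2, an adhesion molecule of parallel fibres, led with Igfbpl1 and differed by 2.67 ± 0.22. Dcx, the microtubule protein doublecortin, differed by 1.86 ± 0.15, a direction that turned with the off-scale array kept and quantile normalized. The count of 8 was 5 without the 4 arrays of high Xist.

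The list of hippocampal pyramidal neurons was the counterpart in the other direction. It was read against 23.4% of all genes called higher in hippocampus and 30.1% in cerebellum. Of 26 genes tested of 32 listed, 25 were higher in hippocampus, 19 of them by at least 2-fold, and 1 in cerebellum, with a median difference of -1.75. Nr3c2, the mineralocorticoid receptor, which is dense in hippocampal neurons, was at 6.29 and 6.39 against 8.71, 8.81 and 9.03, a difference of -2.51 ± 0.16. Hpca, the calcium sensor hippocalcin, was at 9.63 and 9.72 against 11.22, 11.47 and 11.55, a difference of -1.74 ± 0.13. The member higher in cerebellum was Neurod2 (1.04 ± 0.10), a bHLH factor that granule cells express as well. Without the 4 arrays of high Xist 24 were higher in hippocampus.

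Dentate granule cell genes split. Of 7 tested, 3 were higher in hippocampus, 3 in cerebellum and 1 was not called, with a median difference of -0.25. Over all genes 23.4% were called higher in hippocampus and 30.1% in cerebellum. Sema5a, a semaphorin, differed by -1.80 ± 0.21, Stxbp6, a syntaxin-binding protein, by -1.35 ± 0.13 and Prox1, the homeodomain factor that defines dentate granule cells, by -0.83 ± 0.16. Calb1, which Purkinje cells make too, and Il16 (2.46 ± 0.11) had the largest differences toward the cerebellum. Of 13 interneuron genes, 6 were higher in hippocampus and 2 in cerebellum. The peptide genes Cck, Npy (-2.91 ± 0.17) and Vip (-2.35 ± 0.12) led toward the hippocampus, while Pvalb, which both Purkinje cells and basket cells contain, led toward the cerebellum.

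Glial genes were read against the shares over all genes, of which 30.1% were called higher in cerebellum and 23.4% in hippocampus. In astrocytes and Bergmann glia, 8 of 18 genes were higher in cerebellum and 4 in hippocampus, with a median difference of 0.15 that turned negative with the off-scale array kept. Gdf10, a growth factor of Bergmann glia, was at 9.46 and 9.54 against 7.13, 7.14 and 7.21, a difference of 2.34 ± 0.15. Hopx differed by 2.10 ± 0.15 and Slc4a4, a sodium bicarbonate cotransporter, by 1.34 ± 0.12. Gja1, the gap junction protein connexin 43, differed by -1.42 ± 0.20. Gfap, the intermediate filament of astrocytes, was at 11.56 and 11.50 against 11.64, 11.45 and 11.39, so the tissues overlapped and the difference of 0.04 ± 0.26 was not called. With the pup as a block 6 were called in each direction. The count higher in cerebellum was 5 without either cerebellum array, without the hippocampus array of dam 13, and without the 4 arrays of high Xist.

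Of 17 oligodendrocyte and myelin genes, 8 were higher in cerebellum and 3 in hippocampus, with a median of 0.20. Ugt8, which makes galactocerebroside for myelin, differed by 1.46 ± 0.34, Mog, a myelin surface protein, by 1.35 ± 0.35 and Mobp by 1.32 ± 0.40, which lost its call without the cerebellum array of dam 7 (limma adjusted p = 0.084). Mbp, myelin basic protein, was at 13.09 and 13.18 against 12.35, 12.45 and 12.51. Its groups did not overlap, but the difference of 0.70 ± 0.29 lost its call in every fit that left out an array of the comparison and after quantile normalization (limma adjusted p of 0.0521 to 0.164). The count of 8 fell to 4 without the cerebellum array of dam 1, 3 without that of dam 7, 4 and 5 without the hippocampus arrays of dams 1 and 7, and 3 without the 4 arrays of high Xist. Of 13 microglia genes, 6 were higher in hippocampus and 0 in cerebellum, the largest being Csf1r (-0.72 ± 0.13), the receptor on which microglia depend, and P2ry12 (-0.61 ± 0.09). Of 13 genes of endothelium and pericytes, 4 were higher in hippocampus, against 23.4% of all genes, led by the smooth muscle myosin gene Myh11 (-0.78 ± 0.15), and 2 without the cerebellum array of dam 1 or without the 4 arrays of high Xist.

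Markers of tissue next to the dissected regions were read against all genes, of which 53.5% were called and 30.1% were higher in cerebellum. Of 20 genes of meninges and fibroblasts tested, 9 were higher in cerebellum and 2 in hippocampus, with a median of 0.55. The 21 matched on the array had a summed linear level of 13277 to 14430 in cerebellum and 7015 to 9372 in hippocampus. Another listed gene, Nov, annotated as Ccn3 and higher in hippocampus, was not matched and is left out here. The growth factor gene Igf2 differed by 1.05 ± 0.28 and the collagen gene Col1a2 by 1.02 ± 0.29, while Aldh1a1 differed by -1.86 ± 0.15. With the pup as a block 14 were higher in cerebellum, and leaving out 1 array gave 4 to 10, with 5 without the cerebellum array of dam 1 and 4 without that of dam 7. It was also 4 without the 4 arrays of high Xist. For choroid plexus and ependyma 3 of 8 were higher in cerebellum, among them Otx2 (2.29 ± 0.20), a homeodomain factor that granule cell precursors share, and Enpp2 (1.61 ± 0.46). The summed level of the 16 listed genes on the array ran from 3039 to 8680 in cerebellum and from 2360 to 2493 in hippocampus. Ttr, the thyroxine carrier made by choroid plexus, was at 7.36 in the cerebellum of dam 1 and 12.28 in that of dam 7. In hippocampus Ttr was at 7.66, 7.45 and 6.70, and the difference of 2.55 ± 1.59 was not called, but was 5.01 (limma adjusted p = 0.0354) without the cerebellum array of dam 1. Without the cerebellum array of dam 7, 1 choroid plexus gene was called, and Enpp2 was not. Of 3 red blood cell genes 1 was higher in cerebellum, the globin gene Hbb (0.91 ± 0.34), and 0 without either cerebellum array or the hippocampus array of dam 7. The part of these tissues in the genes named elsewhere was not tested.

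Markers of regions near the hippocampus were read against 23.4% of all genes called higher in hippocampus and 30.1% in cerebellum. Of 10 striatal genes, 6 were higher in hippocampus and 3 in cerebellum, with Gng7, a G protein γ subunit, at -2.69 ± 0.12 and Ppp1r1b, which encodes DARPP-32 and is found in Purkinje cells too, at 1.55 ± 0.15. Of 6 thalamic genes 4 were higher in hippocampus, led by the neurofilament gene Nefm (-1.76 ± 0.12), and 2 without the 4 arrays of high Xist. All 4 monoamine neuron genes tested were called higher in hippocampus, with differences between -0.44 and -0.28. With the pup as a block 3 were called, without Slc6a2 (-0.33, limma adjusted p = 0.0733). The count was 0 without the 4 arrays of high Xist or without the cerebellum array of dam 7, and 2 without the cerebellum or the hippocampus array of dam 1.

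**Figure D3:**
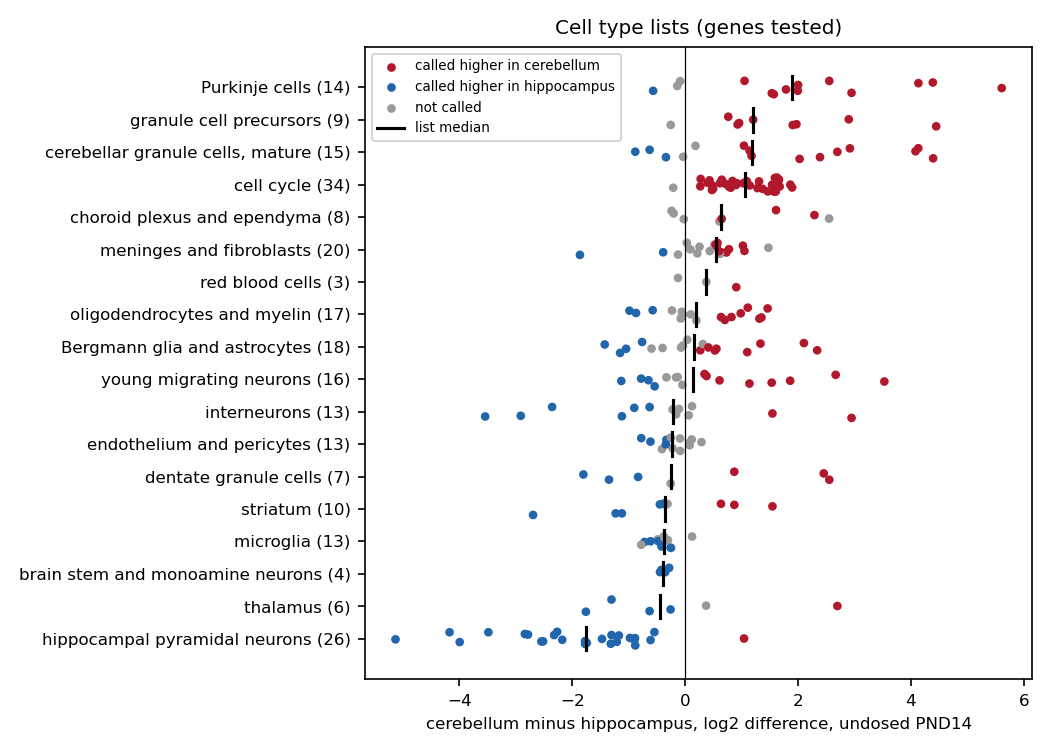
Cerebellum minus hippocampus difference (log2, horizontal axis) of every tested gene of 18 cell type lists in undosed pups at PND14, with the number of genes tested in brackets and a black bar at each list median. Red points are called higher in cerebellum, blue points higher in hippocampus and grey points not called: Purkinje, granule, precursor and cell cycle genes lie mostly to the right, with medians of 1.06 to 1.89, and pyramidal neuron genes to the left with a median of -1.75.

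Transcription factors of development were placed in a hindbrain or a forebrain list, and a listed gene need not be confined to that region. Of 13 genes of the hindbrain list tested, 10 were higher in cerebellum, against 30.1% of all genes, with a median of 1.55. After Pax6, Neurod1, Zic1 and Barhl1 came the homeodomain genes Uncx (1.90 ± 0.15) and Lhx1 (1.57 ± 0.13), and the nuclear factor I genes Nfib (1.55 ± 0.10), Nfia (1.53 ± 0.14) and Nfix (0.63 ± 0.11), which act in the maturation of granule cells. Ebf1 differed by 1.39 ± 0.12. Barhl2 (0.17 ± 0.14) and Esrrb (-0.26 ± 0.13) were not called. Meis2, placed in the hindbrain list, was at 4.05 in cerebellum and 6.16 in hippocampus, a difference of -2.10 ± 0.23. Both means lay below the 40th percentile of the 5 arrays, which was 6.85 to 6.91. Meis2 lost its call with all 24 arrays, as deposited (limma adjusted p = 0.152) and quantile normalized (0.0585).

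Of 16 genes of the forebrain list, 11 were higher in hippocampus and 4 in cerebellum, with a median of -0.90. Among all genes 23.4% were called higher in hippocampus and 30.1% in cerebellum. Lhx2, a selector of the cortex and hippocampus, was at 5.13 in both cerebellum arrays and at 8.40, 8.32 and 7.90 in hippocampus, a difference of -3.08 ± 0.14 with no overlap. Pou3f1 differed by -2.78 ± 0.14, Mef2c, an activity-dependent factor of excitatory neurons, by -2.54 ± 0.19 and Lmo3 by -2.27 ± 0.15. Egr1 (-2.16 ± 0.26), Nr4a2 (-1.56 ± 0.16), Lmo4 (-1.47 ± 0.09), Tbr1 (-0.97 ± 0.16), Prox1, Pou3f3 (-0.70 ± 0.14) and Nr2f2 (-0.52 ± 0.11) made up the rest. Zbtb18 (1.15 ± 0.14), Cux1 (1.12 ± 0.10), Neurod2 and Id2 (0.80 ± 0.16) were higher in cerebellum, and Nr2f1 (0.07 ± 0.08) was not called. The directions of Nfib, Cux1 and Id2 turned when the off-scale array was kept and quantile normalized.

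GABA and glycine receptor subunits differed subunit by subunit. GABA-A receptors are chloride channels, and the α subunit sets where and how a receptor acts. Of 13 genes tested, 6 were higher in hippocampus, 2 in cerebellum and 5 were not called, with a median of -0.35. Over all genes 23.4% were called higher in hippocampus and 30.1% higher in cerebellum. Gabra6 and Gabrd (1.18 ± 0.26), the δ subunit that pairs with α6 in granule cell receptors outside synapses, were higher in cerebellum, Gabrd with values of 8.27 and 8.78 against 7.23, 7.50 and 7.30. Gabra5, the α5 subunit of extrasynaptic hippocampal receptors, was at 6.28 and 6.54 against 9.78, 9.98 and 9.68. Gabrb1 (-1.40 ± 0.10), Gabrg1 (-0.58 ± 0.11), Gabrr2 (-0.38 ± 0.12), the GABA-B subunit Gabbr2 (-0.55 ± 0.13) and the glycine receptor subunit Glra2 (-1.55 ± 0.17) were higher in hippocampus. Gabrb2 (0.07 ± 0.13), Gabbr1 (-0.02 ± 0.11), Gabre (-0.15 ± 0.10), Glrb (-0.32 ± 0.18) and Gabra4 (-0.35 ± 0.15) were not called. With the pup as a block Glrb (limma adjusted p = 0.0335) and Gabra4 (0.0118) were called. Gabrr2 (0.134) and Gabbr2 (0.0734) lost their calls without the 4 arrays of high Xist.

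Glutamate receptors were higher in hippocampus with 3 exceptions. Of 18 genes tested, 15 were higher in hippocampus and 3 in cerebellum, with a median of -0.66. The shares of all genes were 23.4% and 30.1%. The AMPA receptor subunits Gria1 (-1.03 ± 0.17), Gria2 (-0.57 ± 0.10) and Gria3 (-0.81 ± 0.15) were all higher in hippocampus. Of the NMDA receptor subunits, Grin2d (-1.45 ± 0.14), Grin3a (-1.18 ± 0.15), Grin2b (-0.62 ± 0.14), Grin1 (-0.58 ± 0.11) and Grin2a (-0.57 ± 0.11) were higher in hippocampus, and Grin2c was higher in cerebellum. The kainate receptor genes also divided, with Grik4 (-0.90 ± 0.13) and Grik5 (-0.69 ± 0.14) higher in hippocampus and Grik2 (1.25 ± 0.13) in cerebellum. Among metabotropic receptors Grm4, the presynaptic receptor of parallel fibres, was higher in cerebellum, at 9.52 and 10.09 against 7.36, 7.48 and 7.23, a difference of 2.45 ± 0.35. Grm7 (-1.60 ± 0.12), Grm3 (-0.84 ± 0.13), Grm5 (-0.73 ± 0.14), Grm2 (-0.54 ± 0.16) and Grm8 (-0.32 ± 0.09) were higher in hippocampus. Grm2 lost its call without the cerebellum array of dam 7 (limma adjusted p = 0.0727) and Grm8 without the 4 arrays of high Xist (0.0861).

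**Figure D4:**
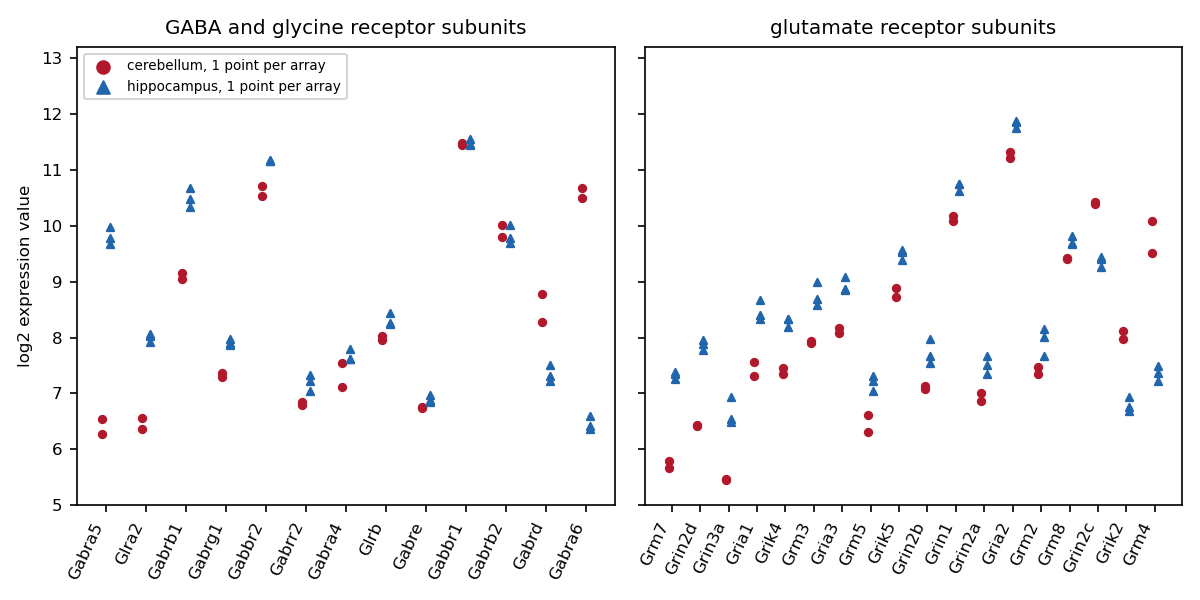
Log2 expression value in each array for the 13 GABA and glycine receptor genes (left) and 18 glutamate receptor genes (right) tested, ordered by the tissue difference. Red circles are the 2 cerebellum arrays and blue triangles the 3 hippocampus arrays: Gabra5 (left end) and Gabra6 (right end) lie apart in opposite directions, as do Grm7 and Grm4.

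Ion channels set how neurons fire. Of 19 genes of voltage-gated potassium channels, 6 were higher in hippocampus and 5 in cerebellum, against 23.4% and 30.1% of all genes. Kcnip2, a calcium-binding partner of A-type channels, differed by -2.06 ± 0.10, Kcng2 by -1.78 ± 0.13, Kcnab2 by -1.64 ± 0.13, Kcnh3 by -1.06 ± 0.14, Kcnd1 by -0.96 ± 0.17 and Kcnc4 by -0.37 ± 0.09. Kcnc1, the Kv3.1 channel of fast-firing neurons, was higher in cerebellum by 1.76 ± 0.28. Kcnd3 (0.79 ± 0.13), Kcnh2 (0.77 ± 0.13), Kcnh1 (0.70 ± 0.15) and Kcna1 (0.38 ± 0.12) were higher in cerebellum too. The 8 others lay between -0.30 and 0.29 and were not called. Of these, Kcnab1 was called with the pup as a block (limma adjusted p = 0.0267). Kcna1 lost its call without the cerebellum array of dam 7 (0.216), and Kcnc4 lost its call without that of dam 1 (0.0678).

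The other potassium channels gave 6 of 16 in each direction, against 30.1% of all genes higher in cerebellum and 23.4% in hippocampus. Kcnk1 (2.12 ± 0.13), Kcnk13 (1.22 ± 0.11), Kcnk12 (1.00 ± 0.14) and Kcnk3 (0.75 ± 0.11), which encode leak channels, and Kcnj6 (1.82 ± 0.14), the GIRK2 channel opened by G proteins, were higher in cerebellum. Kcnj3 (0.26 ± 0.10) was called too, but a second probe set stood at -0.46 and it lost its call with the pup as a block (limma adjusted p = 0.053) and when any array but the hippocampus array of dam 1 was left out. Kcnmb4 (-1.67 ± 0.08), an auxiliary subunit of BK channels, Kcnj4 (-1.49 ± 0.16), Kcnn1 (-0.70 ± 0.12), Kcnma1 (-0.60 ± 0.16), Kcnj16 (-0.56 ± 0.16) and Kcnk6 (-0.28 ± 0.11) were higher in hippocampus. Kcnma1 and Kcnj16 lost their calls without the cerebellum array of dam 1. Kcnk6 lost its call in the block (0.0787), without either cerebellum array, without the hippocampus array of dam 1 or that of dam 13, and without the 4 arrays of high Xist (limma adjusted p of 0.0706 to 0.192). Fewer than 6 were called higher in hippocampus without the cerebellum array of dam 1. Without the hippocampus array of dam 1 or that of dam 13 the count was 4.

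Of 24 genes of sodium and calcium channels, 12 were higher in hippocampus and 5 in cerebellum, against 23.4% and 30.1% of all genes. The P/Q-type calcium channel gene Cacna1a, mutated in hereditary ataxias, differed by 1.33 ± 0.19 and the T-type gene Cacna1g by 1.31 ± 0.11. Cacna1d (0.68 ± 0.12), Cacng2 (0.68 ± 0.13), the gene of stargazin that brings AMPA receptors to granule cell synapses, and Scn4b (0.64 ± 0.15) were higher in cerebellum as well. The related genes Cacng3 (-2.48 ± 0.17) and Cacng8 (-1.70 ± 0.13) were higher in hippocampus, so members of the stargazin family lay on both sides. Scn3b (-2.13 ± 0.15), Scn3a (-1.55 ± 0.19), Cacna1h (-1.46 ± 0.11), Cacnb1 (-1.41 ± 0.11) and Scn2a (-0.80 ± 0.21) were also higher in hippocampus. Scn2a lost its call without the cerebellum array of dam 1 (limma adjusted p = 0.064). The other 5 called higher in hippocampus lay between -0.66 and -0.44, of which Cacna1b (-0.49 ± 0.13) lost its call without the 4 arrays of high Xist (0.0627), and the 7 not called between -0.20 and 0.05.

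Calcium handling genes were read against 23.4% of all genes called higher in hippocampus and 30.1% in cerebellum. Of 28 genes of calcium-binding proteins and stores, 11 were higher in hippocampus, led by Nrgn and Ncald (-2.63 ± 0.15), a calcium sensor of the hippocalcin family, and 8 in cerebellum, led by Pvalb and Calb1. The count of 11 was 7 without the 4 arrays of high Xist. Of 39 kinases and phosphatases of plasticity, 23 were higher in hippocampus and 5 in cerebellum, with a median of -0.43. Ptk2b, the calcium-activated tyrosine kinase PYK2, differed by -2.95 ± 0.12 and Pde2a, a phosphodiesterase of cyclic nucleotides, by -2.53 ± 0.11. Camk2d, which encodes another subunit of the kinase of Camk2a, was at 10.91 in cerebellum and 8.81 in hippocampus, a difference of 2.10 ± 0.17.

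Genes of vesicle release were higher in hippocampus for 16 of 33 and in cerebellum for 9, with a median of -0.22. The shares over all genes were 23.4% and 30.1%. The synaptotagmin genes Syt17 (-2.59 ± 0.10) and Syt5 (-1.95 ± 0.12) and the syntaxin gene Stx1a (-1.66 ± 0.11) led toward the hippocampus. Unc13c, the priming factor Munc13-3 of granule cell terminals, differed by 1.73 ± 0.17. The count of 9 was 5 without the cerebellum array of dam 7 or without the 4 arrays of high Xist. Of 28 neuropeptides and their receptors, 19 were higher in hippocampus and 2 in cerebellum, with a median of -0.64. Npy, the gene of neuropeptide Y, was at 6.99 and 7.47 against 10.05, 10.29 and 10.08, with no overlap, and the somatostatin receptor gene Sstr1 differed by -2.60 ± 0.13, with a second probe set at -0.89. Of 21 receptors for monoamines, acetylcholine, purines and cannabinoids, 13 were higher in hippocampus and 1 in cerebellum. Htr2c differed by -2.93 ± 0.39, with a second probe set at -0.92, Htr5b by -2.19 ± 0.16 and Chrm3, a muscarinic receptor, by -1.02 ± 0.20.

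Immediate early and activity-dependent genes were higher in hippocampus for 14 of 27 and in cerebellum for 4, with a median of -0.49. Egr1 was at 7.88 and 7.83 against 9.98, 10.21 and 9.87, with no overlap. Nr4a3, an orphan nuclear receptor, differed by -2.94 ± 0.19, with a second probe set at -0.66, and Rgs4, a brake on G protein signalling, by -2.41 ± 0.17. Homer1, a scaffold of glutamate receptors, differed by -0.83 ± 0.11. Dusp5, a nuclear phosphatase of ERK, was higher in cerebellum by 2.68 ± 0.15. The count of 4 was 2 without the 4 arrays of high Xist. Of 23 genes of steroid, thyroid and retinoid signalling, 8 were higher in hippocampus and 5 in cerebellum, against 23.4% and 30.1% of all genes. Beside Crym and Nr3c2, the hippocampus led for Aldh1a1 and for Crabp1 (-1.60 ± 0.15), which binds retinoic acid in the cytosol. The count of 5 was 3 without either cerebellum array or the hippocampus array of dam 7, and 1 without the 4 arrays of high Xist.

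Among 41 genes of axon guidance and adhesion, 22 were higher in hippocampus and 10 in cerebellum, with a median of -0.35. The shares over all genes were 23.4% and 30.1%. Opcml differed by -2.70 ± 0.15 and the semaphorin receptor gene Nrp1 by -2.37 ± 0.12, while Cntn2 led toward the cerebellum. Among 32 genes of Wnt, hedgehog, BMP and FGF signalling, 12 were higher in cerebellum and 6 in hippocampus, against 30.1% and 23.4% of all genes. Wif1, a secreted inhibitor of Wnt, differed by 1.31 ± 0.17 and Wnt4 by -1.50 ± 0.14. Of 30 ribosomal protein genes, 28 were higher in cerebellum and 0 in hippocampus, with a median of 0.52 that was 0.51 after quantile normalization. Rpl18 had the largest difference, 1.00 ± 0.09. Rpl7 differed by 0.74 ± 0.09, but a second probe set of it stood at -0.12. Without the cerebellum array of dam 1, 22 were called higher in cerebellum, and without the 4 arrays of high Xist 18 were called higher in cerebellum, with a median of 0.46.

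The tissue difference at PND14 was then set against that at PND7 in undosed pups, from 6 other arrays, through the difference of the differences in the same fit. For 1865 probe sets (18.1%) it was called, 1178 (11.4%) toward the cerebellum with age and 687 (6.65%) toward the hippocampus. Over genes 1280 (17.1%) were called, 745 (9.97%) toward the cerebellum and 535 (7.16%) toward the hippocampus. Over all genes 49.8% were called between the tissues at PND7. Of the 383 genes at least 2-fold higher in cerebellum at PND14, 332 were called in the same direction at PND7, 1 in the opposite direction and 50 were not called. For 163 of the 383 the age difference was called as wider at PND14 and for 14 as narrower. Of the 350 genes at least 2-fold higher in hippocampus, 330 were called in the same direction at PND7, 1 in the opposite direction and 19 were not called, with 140 wider and 11 narrower. These genes were chosen for their size at PND14, so the counts of wider and narrower differences are a description. The count of 1865 was 983 without the cerebellum array of dam 1 at PND14, 1222 without that of dam 7, and 416 without the 4 arrays of high Xist.

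Gabra6 changed most: the tissues differed by 0.29 ± 0.25 at PND7, where it was not called, and by 4.13 at PND14, a change of 3.84 ± 0.38 (limma adjusted p = 9.68e-07). The values were then 17.5-fold apart. Slc1a6 widened from 1.64 ± 0.11 by 2.49 ± 0.17 and Pvalb from 0.57 ± 0.20 by 2.38 ± 0.29. Fibcd1, a marker of CA1 pyramidal neurons, went from 0.44 ± 0.15 toward the cerebellum to -2.84 ± 0.17 toward the hippocampus, a change of -3.27 ± 0.23. Syt4, a synaptotagmin of dense-core vesicles, crossed the other way, from -1.72 ± 0.12 to 0.94 ± 0.14. Synpr, the vesicle protein synaptoporin, was higher in hippocampus at PND7, with a difference of -2.41 ± 0.25, and differed by -0.03 ± 0.28 at PND14, where the interval of -0.60 to 0.54 (95%) spans no difference. Olfm3 went from -1.46 ± 0.29 to 0.83 ± 0.33, a difference at PND14 that lost its call when either cerebellum array or the hippocampus array of dam 1 or 7 was left out. Htr2c went from -0.64 ± 0.35 to -2.93 ± 0.39, and its change of -2.29 ± 0.52 lost its call without the 4 arrays of high Xist (adjusted p = 0.205).

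The change with age was then read by list. Over all genes 9.97% had a called change toward the cerebellum and 7.16% toward the hippocampus. Of 15 genes of mature granule cells, 10 had a called change toward the cerebellum and 0 toward the hippocampus, and the list median went from 0.29 at PND7 to 1.18. Of 14 Purkinje cell genes 6 changed toward the cerebellum and 1 away, with medians of 1.07 and 1.89. Of 34 cell cycle genes 13 narrowed and 1 changed toward the cerebellum, from a median of 1.54 to 1.06, so the list median lay toward the cerebellum at both ages. Of 26 pyramidal neuron genes 8 changed toward the hippocampus and 3 away, with medians of -1.32 and -1.75. Mbp went from 2.67 at PND7 to 0.70 at PND14, a change of -1.97 ± 0.39 that lost its call without the 4 arrays of high Xist (limma adjusted p = 0.0679). Of 17 oligodendrocyte genes 3 changed, all toward the hippocampus, against 17.1% of all genes with a called change.

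**Figure D5:**
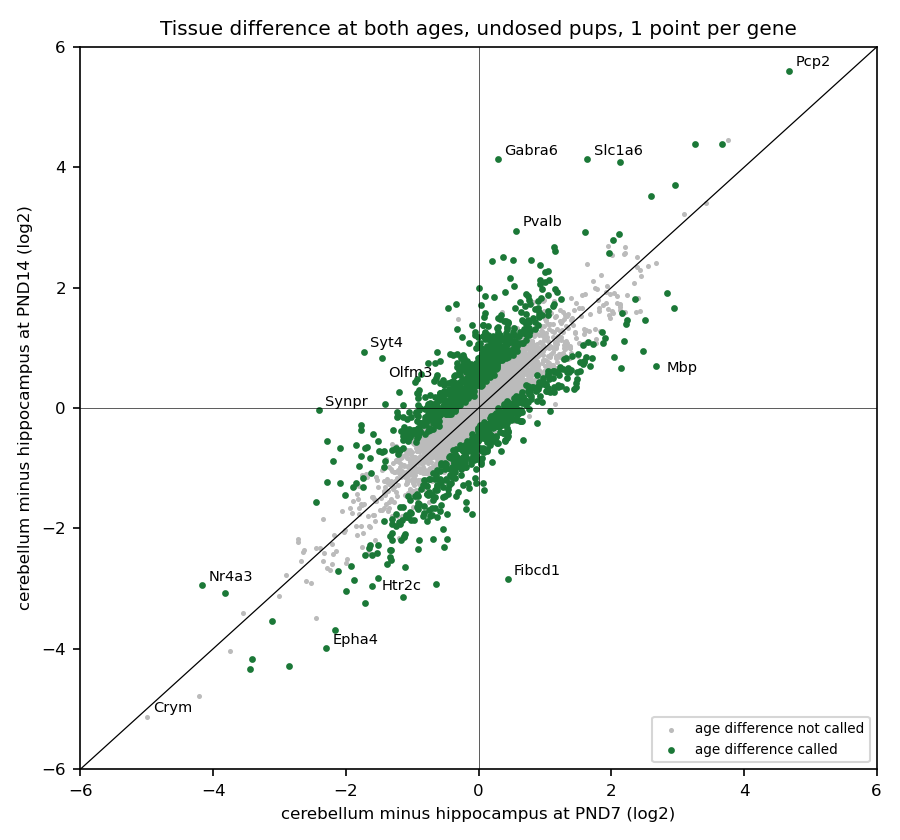
Cerebellum minus hippocampus difference (log2) of each of 7474 genes in undosed pups at PND7 (horizontal axis) and PND14 (vertical axis), with the diagonal marking equal differences. Green points are the 1280 genes whose difference between ages was called and grey points the others: Gabra6 and Fibcd1 lie far from the diagonal in opposite directions, while Crym lies near it.

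Whether the tissue difference at PND14 differed between undosed and dosed pups was tested in the same fit. Limma called 0 of 10330 probe sets (0%), with a smallest adjusted p of 0.998, and 248 lay under 0.05 before adjustment, where 516 would by chance. The gene nearest a call was Rprd1b, a regulator of RNA polymerase II, whose tissue difference was 0.68 in undosed and 0.23 in dosed pups, 0.45 ± 0.11 apart. Chrna4, the α4 nicotinic receptor subunit, was at -0.82 and -0.30, a difference of -0.53 ± 0.15. Pura, Dcaf7, Rprd2, Plekhh3, Mdm2 and Tspan17 followed, with differences between -0.56 and 0.48. The absence of calls does not show that the tissue differences are equal.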

How the data were processed

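Total RNA of cerebellum and hippocampus was measured on 24 Affymetrix arrays, with biotin-labelled cRNA per the labels' protocols. The authors deposited log2 expression values per probe set, used here as deposited; the summary and normalization method was not given in the sources used here. Of 15923 probe sets, 57 controls were dropped. Of the 15866 left, 12783 had 1 gene symbol, 312 several and 2771 none. The 10330 probe sets whose value passed an array's 40th percentile on 3 or more arrays were tested. A gene was represented by its probe set with the highest mean, which gave 7474 genes.

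A mean per group was fitted to 23 arrays with limma 3.58.1 in R 4.3.3, with empirical Bayes variances and Benjamini-Hochberg adjustment over 10330 probe sets, and was tested on simulated data. The cerebellum array with a median above 7.7 was left out. Deviations of the 2 tissues of a pup correlated with a median r of 0.26 over 11 pups (0 to 0.57), and the pairing comes from the labels' statement that 1 pup per litter was used at each age. Named genes were the 12 largest differences each way among called genes without overlap, a set of genes fixed by name, up to 4 called members per list, every tested member of the receptor, channel and transcription factor lists, and 8 genes for each change with age or dosing. The members and lists were chosen with earlier results of these data known. Alternatives were quantile normalization, all 24 arrays, other filters, a variance trend, fewer groups, the pup as a block, each array left out, and, chosen after the data were seen, leaving out the 4 arrays of high Xist. The number of arrays limits the precision. Figures were drawn with matplotlib 3.10.9.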

Additional observations from a re-analysis of the deposited data

Results flagged for a closer look

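In 24 of the genes named above the tissue difference itself differed between PND7 and PND14 in undosed pups, by limma's test of the difference of differences (PND14 minus PND7, log2 ± SE, adjusted over all probe sets tested). A positive value is a change toward the cerebellum.

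Genes of granule cells with such a change were Gabra6 (3.84 ± 0.38, adjusted p = 9.68e-07), Fat2 (1.95 ± 0.23, adjusted p = 9.43e-06), Neurod1 (1.32 ± 0.18, adjusted p = 3.52e-05) and Cbln1 (1.14 ± 0.29, adjusted p = 0.0102). Genes of Purkinje cells were Slc1a6 (2.49 ± 0.17, adjusted p = 8.55e-09), Pvalb (2.38 ± 0.29, adjusted p = 1.18e-05), Pcp2 (0.93 ± 0.16, adjusted p = 0.000455) and Car8 (0.73 ± 0.16, adjusted p = 0.00286). The vesicle genes were Syt4 (2.66 ± 0.18, adjusted p = 8.55e-09) and Synpr (2.38 ± 0.37, adjusted p = 0.000166). The remaining changes toward the cerebellum were those of Olfm3 (2.28 ± 0.44, adjusted p = 0.0012), Igfbpl1 (0.93 ± 0.27, adjusted p = 0.0208) and Mfap4 (0.74 ± 0.21, adjusted p = 0.0193).

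Toward the hippocampus, genes of pyramidal neurons changed: Fibcd1 (-3.27 ± 0.23, adjusted p = 8.55e-09), Epha4 (-1.70 ± 0.18, adjusted p = 2.56e-06), Nrgn (-0.76 ± 0.17, adjusted p = 0.00336) and Hpca (-0.72 ± 0.18, adjusted p = 0.00837). The others of the 24 with a change in that direction were Htr2c (-2.29 ± 0.52, adjusted p = 0.00431), Mbp (-1.97 ± 0.39, adjusted p = 0.00153), Cx3cl1 (-1.54 ± 0.19, adjusted p = 1.58e-05), Cracdl (-1.52 ± 0.17, adjusted p = 5.16e-06), Ddn (-1.43 ± 0.18, adjusted p = 1.96e-05), Camkv (-0.90 ± 0.26, adjusted p = 0.0209) and Cck (-0.43 ± 0.14, adjusted p = 0.0366). Without the 4 arrays of high Xist, 16 of the 24 were still called. The other 8 kept their direction, at 1.18 for Cbln1, 0.95 for Igfbpl1, 0.79 for Mfap4, 0.51 for Car8, -0.56 for Cck, -0.98 for Camkv, -1.88 for Mbp and -1.67 for Htr2c, with fewer arrays in the fit.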

How the results depend on the processing

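The tissue comparison kept its direction in all 733 genes of at least 2-fold under quantile normalization of the 23 arrays, with the pup as a block and on leaving out each of the 5 arrays, as far as the genes had a value, and 726 to 733 stayed called. The replicate block gave 5455 probe sets called, 1815 for the change with age and 0 by dosing. Leaving out 1 array gave 4205 to 5284 probe sets called, and the change with age gave 983 to 1761. Leaving out a cerebellum array leaves 1, which is assumed to vary like the other groups. Without the 4 arrays of high Xist 3586 were called, 1955 higher in cerebellum, and 416 for the change with age.

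With all 24 arrays as deposited, 1307 were called higher in hippocampus and 757 for the change with age, the median difference rose to 0.18, and of the 733 genes 714 kept their direction and 651 their call. With all 24 quantile normalized, 785 were called at least 2-fold higher in hippocampus and 802 for the change with age, and of the 733 genes 694 kept their direction and 652 their call. With all 24 as deposited the sign of the tissue difference in undosed pups turned for Slco1a4 (0.022), Slc6a2 (0.038), Slc18a2 (0.23), Fev (0.089) and Cux1 (-0.245). It turned as well for Gabrr2 (0.097), Kcnj16 (0.18), Kcnk6 (0.015) and Dcaf7 (-1.034), the last a gene named above for dosing. With all 24 quantile normalized it turned for Dcx (-0.198), Slc18a2 (0.12), Nfib (-0.159), Id2 (-0.071), Cux1 (-0.704), Kcnj16 (0.081) and Kcnk12 (-0.02). The tissue difference in undosed pups also turned there for Rprd1b (-0.184) and Dcaf7 (-1.341), both named above for dosing. With the median over probe sets it turned for Kcnj3 (-0.105). The cause was not tested.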

Other observations

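Genes outside the lists, chosen after their values were seen, differed in both directions, by less than the 12 named in each direction. Toward the hippocampus these included Wipf3 (-3.13 ± 0.15), a partner of actin regulators, the kinase gene Cdkl2 (-3.12 ± 0.20) and Crtac1 (-2.88 ± 0.13). The lipoprotein lipase gene Lpl (-2.35 ± 0.15) and the clusterin gene Clu (-2.01 ± 0.30) were others. The matricellular gene Ccn3 (-3.04 ± 0.24) was listed with meninges and fibroblasts under its other symbol, Nov. That symbol was not matched, so the counts of the list leave the gene out. Toward the cerebellum they included Pik3r3 (2.79 ± 0.15), a regulatory subunit of PI3 kinase, Tpd52l1 (2.62 ± 0.18), the zinc finger gene Zfp423 (2.58 ± 0.10), Pclaf (2.42 ± 0.28), which binds the replication clamp, the homeodomain gene Onecut1 (2.19 ± 0.16), and Cdkn1b (1.98 ± 0.14), whose product p27 stops the cell cycle. In dosed pups Wipf3 differed by -3.47 and Zfp423 by 2.20, in the same directions.

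The largest difference of any probe set tested was that of a probe set without a single gene symbol in the annotation used. Probe set 1368632_at was at 4.46 and 4.58 in cerebellum and at 10.59, 10.64 and 10.35 in hippocampus, a difference of -6.01 ± 0.15, or 64.5-fold higher in hippocampus. Of the 50 probe sets with the largest absolute difference, 9 lacked a single symbol. Probe set 1390303_at was at 9.80 and 8.08 in the cerebellum of dams 1 and 7, against 5.50, 5.22 and 5.49 in hippocampus, so its cerebellum arrays lay far apart.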
